A study of Mus musculus with 30 samples.

Results

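Complex I, NADH:ubiquinone oxidoreductase, is the entry point of electrons into the mitochondrial respiratory chain. It takes electrons from NADH in an arm that reaches into the mitochondrial matrix, passes them along a flavin and a chain of iron-sulfur clusters to ubiquinone, and pumps protons across the inner membrane in a second arm that lies in that membrane. Its core subunits carry out this chemistry, its accessory subunits surround and stabilise the core, and both kinds are made from nuclear genes except for the core of the membrane arm, which is made from mitochondrial DNA. Hematopoietic stem cells at rest are known for a low use of respiration, which increases when they are activated.

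The members described here are the mouse genes named Ndufa, Ndufb, Ndufc, Ndufs or Ndufv with a number, plus Ndufab1, without the Ndufaf assembly factors and without names that hold -ps. This naming rule found 38 genes, listed under 42 entries, among the 46113 genes of the count files, and used no measured value. Of the 38 genes, 36 encode complex I subunits: 7 core subunits of the matrix arm, 9 accessory subunits of that arm, 9 accessory subunits of the inner and 10 of the outer portion of the membrane arm, and the acyl carrier protein Ndufab1. The other two go against the name: Ndufa4 is found with cytochrome c oxidase, complex IV, and Ndufa4l2 is its paralog. The 38 genes lie on 15 chromosomes.

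The study sequenced RNA of 100 sorted bone marrow cells per library from C57BL/6 mice aged 8 to 10 weeks, and asked how hematopoietic stem cells (HSCs) respond to 5-fluorouracil (5-FU), a drug that kills dividing cells. Of 30 libraries, 4 came from HSCs of untreated mice, 4 from HSCs taken 6 days after 5-FU and 6 from HSCs taken 10 days after 5-FU. A second experiment held 4 libraries of HSCs of untreated mice cultured for 1 day and 4 of uncultured HSCs. In the third, 10 days after 5-FU, 4 libraries of CD48+ hematopoietic progenitor cells (HPCs) stood against 4 of CD48- HSCs. HSCs were sorted as CD150+, CD48-, EPCR+ and lineage-negative cells, and HPCs by the same markers but CD48+. The libraries within a group are labelled as replicates, and nothing states that they came from separate mice, so p-values measure the spread between these libraries.

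Libraries held 5208722 to 12243208 reads on exons, so that 3 reads correspond to 0.245 to 0.576 CPM, the reads scaled to a common library total. The tested members had 11 to 2373 exon reads in a library. Exon CPM are scaled with edgeR's TMM factors over all 30 libraries. RNA of all groups held transcripts of HSC marker genes, whose summed CPM lay between 1751 and 5407. In bulk libraries, fewer cells of a type and less RNA per cell cannot be told apart.

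Promoter windows of 300 bases, from 250 before to 50 after the annotated transcript start, were available for 33 of the 38 genes from RefSeq (GRCm38.p6). Of these 33 genes, 7 held the motif of the factor NRF1 (GCGC, any base, then TGCGC) on either strand, which is 21.2%, against 5.19% of 27025 genes with a window. The YY1 motif AAGATGG was found in 7 members (21.2%), against 7.28% of all genes, and the ETS factor motif CCGGAAG in 4 members (12.1%), against 9.93%. At least 1 of the 3 motifs was in 17 members (51.5%), against 20% of all genes. The 27025 genes include genes not tested in these libraries, and shares among the tested genes are not given here. NRF1, YY1 and ETS factors of the GABP kind are known as activators of nuclear genes for respiration. The 6 windows below show the range: Ndufb4 with 3 NRF1 matches, Ndufs6 with NRF1 and YY1 matches, Ndufs3 with 2 ETS matches, Ndufa6 with an NRF1 match although its RNA stood apart from most members, Ndufa4, which changed with the smallest p and holds none of the 3 motifs, and Ndufb11, which holds none and stayed near its control level. Capitals mark motif matches on either strand, each sequence runs 5′ to 3′ on its gene's strand, and none of these matches overlap each other.
Ndufb4 (chr16:37654319-37654618, - strand): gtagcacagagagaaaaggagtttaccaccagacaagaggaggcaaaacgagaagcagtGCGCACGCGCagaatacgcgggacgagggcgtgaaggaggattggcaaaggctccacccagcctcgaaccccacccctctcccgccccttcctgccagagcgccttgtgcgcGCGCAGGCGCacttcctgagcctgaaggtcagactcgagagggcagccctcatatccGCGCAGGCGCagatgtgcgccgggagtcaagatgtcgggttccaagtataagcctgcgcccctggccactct
Ndufs6 (chr13:73328433-73328732, - strand): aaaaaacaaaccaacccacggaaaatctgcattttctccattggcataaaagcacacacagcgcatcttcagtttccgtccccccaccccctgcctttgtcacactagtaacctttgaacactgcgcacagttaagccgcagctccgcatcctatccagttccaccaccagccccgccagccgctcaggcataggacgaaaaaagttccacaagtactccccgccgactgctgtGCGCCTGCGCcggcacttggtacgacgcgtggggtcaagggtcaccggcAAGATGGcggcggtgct
Ndufs3 (chr2:90904672-90904971, - strand): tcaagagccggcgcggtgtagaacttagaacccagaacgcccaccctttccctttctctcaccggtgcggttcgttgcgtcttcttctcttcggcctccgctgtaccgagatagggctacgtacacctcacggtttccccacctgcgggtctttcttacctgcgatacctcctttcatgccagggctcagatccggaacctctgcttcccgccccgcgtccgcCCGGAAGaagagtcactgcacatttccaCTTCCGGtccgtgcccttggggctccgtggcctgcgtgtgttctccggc
Ndufa6 (chr15:82354242-82354541, - strand): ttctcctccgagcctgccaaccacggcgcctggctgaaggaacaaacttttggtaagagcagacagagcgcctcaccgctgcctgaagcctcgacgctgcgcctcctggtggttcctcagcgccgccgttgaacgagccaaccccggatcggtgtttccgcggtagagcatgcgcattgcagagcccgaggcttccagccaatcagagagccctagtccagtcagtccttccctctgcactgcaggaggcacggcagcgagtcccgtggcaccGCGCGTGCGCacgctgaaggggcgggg
Ndufa4 (chr6:11907401-11907700, - strand): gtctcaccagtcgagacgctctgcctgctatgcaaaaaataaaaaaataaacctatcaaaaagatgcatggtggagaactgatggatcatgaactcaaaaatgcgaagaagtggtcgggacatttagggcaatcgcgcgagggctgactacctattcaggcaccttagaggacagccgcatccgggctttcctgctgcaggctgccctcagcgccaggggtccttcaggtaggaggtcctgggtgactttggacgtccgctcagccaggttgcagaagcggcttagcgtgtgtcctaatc
Ndufb11 (chrX:20617570-20617869, - strand): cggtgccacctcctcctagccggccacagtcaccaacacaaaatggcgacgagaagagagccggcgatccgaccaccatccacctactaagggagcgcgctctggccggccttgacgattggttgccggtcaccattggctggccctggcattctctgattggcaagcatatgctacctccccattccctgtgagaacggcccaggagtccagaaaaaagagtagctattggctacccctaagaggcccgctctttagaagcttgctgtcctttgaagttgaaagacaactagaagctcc
A match of letters describes the window and is not evidence of binding.

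Before any comparison, the members differed widely in level. In untreated HSCs the 36 subunits spanned 17.7-fold in exon CPM per kb of exon, around a median of 27.6, with Ndufa3, a small membrane-arm subunit, at 84.0 ± 6.84 and Ndufa5, an accessory subunit of the matrix arm, at 4.76 ± 1.91 (SD, n = 4). Next in order after Ndufa3 was Ndufa6 at 83.9 ± 7.04 CPM per kb (SD, n = 4), and the libraries of these genes overlapped. Ndufa4 was above every subunit in each of the 7 groups, with 170.5 ± 7.18 CPM per kb in untreated HSCs. Ndufs4, Ndufa5, Ndufb3 and Ndufa11 held the lowest places, 34 to 37 of 37, in each group. Ndufa4l2, known as a gene induced by hypoxia, had between 0 and 6 exon reads in a library and was not tested.

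The first comparison asked what 5-FU does to these RNAs in HSCs. At day 6, 34 of 37 tested members were called higher than in untreated HSCs and none lower, at an edgeR adjusted p under 0.05, where 25.7% of all 12886 genes tested were called higher and 25.7% lower. No member was lower at an unadjusted p under 0.05 in this or any of the other comparisons of treated, cultured or CD48+ cells with the controls of the same experiment. The median log2 change of the members was 0.77, against -0.04 over all genes, and the members' changes ran from 0.15 to 1.55. In 33 members the 4 day 6 libraries lay above all 4 untreated libraries, against 23.8% of all genes. The exon CPM of the 36 subunits summed to 1835 ± 57.6 at day 6, against 1092 ± 31.2 in untreated HSCs (SD, n = 4 each), 1.68 times as much.

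Ndufa4 had 219, 228, 242 and 234 exon CPM at day 6, against 81.6, 86.5, 87.3 and 80.2 CPM in untreated HSCs. Its log2 change was 1.46 ± 0.08 (SE; edgeR adjusted p = 1.58e-08), the smallest p among the members, and the groups lay far apart. Ndufa1, a small X-linked subunit of the membrane arm, had 30.7, 23.3, 26.8 and 29.5 CPM at day 6, against 9.31, 8.52, 10.6 and 9.32 CPM in untreated HSCs. Its log2 change of 1.55 ± 0.14 (SE; edgeR adjusted p = 6.59e-07) was the largest of the members, and every day 6 library was above every untreated one. Ndufb5, of the outer membrane arm, had 127, 133, 128 and 124 CPM at day 6, against 61.0, 69.8, 60.9 and 63.4 CPM in untreated HSCs. It changed by 1.01 ± 0.09 on the log2 scale (SE; edgeR adjusted p = 7.24e-07), again without overlap.

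All 7 core subunits of the matrix arm rose at day 6, with a median log2 change of 0.73. Ndufv1, which binds NADH and the flavin, had 88.1, 105, 90.1 and 89.7 CPM at day 6, against 66.7, 63.7, 65.7 and 62.8 CPM in untreated HSCs, a log2 change of 0.53 ± 0.08 (SE; edgeR adjusted p = 6.56e-05). Ndufv2, its iron-sulfur partner, had 26.1, 30.6, 31.5 and 29.3 CPM at day 6, against 16.3, 18.7, 17.8 and 17.3 CPM in untreated HSCs, a log2 change of 0.75 ± 0.14 (SE; edgeR adjusted p = 0.000373). Ndufs1, the largest subunit and carrier of several iron-sulfur clusters, had 62.2, 67.7, 66.5 and 65.8 CPM at day 6, against 36.5, 41.1, 43.6 and 37.0 CPM in untreated HSCs, a log2 change of 0.73 ± 0.10 (SE; edgeR adjusted p = 2.93e-05). In these subunits of the NADH end, no untreated library reached a day 6 library. Ndufs7, an iron-sulfur subunit close to ubiquinone, had 94.7, 82.8, 95.1 and 92.6 CPM at day 6, against 66.6, 68.8, 64.6 and 72.7 CPM in untreated HSCs, the smallest core change at 0.42 ± 0.08 (SE, log2; edgeR adjusted p = 0.00049). Ndufs8, which carries iron-sulfur clusters towards ubiquinone, had 65.9, 60.3, 68.3 and 68.2 CPM at day 6, against 34.1, 41.1, 37.1 and 41.6 CPM in untreated HSCs, the largest core change at 0.77 ± 0.12 (SE, log2; edgeR adjusted p = 7.25e-05). Ndufs7 and Ndufs8 were likewise free of overlap. Ndufs3, a structural core subunit, had 55.2, 61.4, 58.9 and 54.2 CPM at day 6, against 33.8, 40.8, 34.5 and 38.3 CPM in untreated HSCs, a log2 change of 0.64 ± 0.10 (SE; edgeR adjusted p = 6.31e-05). None of its exon reads were unique, and the files list it under more than 1 entry. The same holds for Ndufa7. With unique exon reads alone 30 of 35 members were called higher at day 6, and the share of all genes called in that fit is not given here.

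Accessory subunits rose in each region of the complex at day 6. In the matrix arm 8 of 9 were called higher (median log2 change 0.67), in the inner membrane arm 9 of 9 (median 0.94) and in the outer membrane arm 8 of 10 (median 0.84). Ndufab1, which also carries acyl chains for mitochondrial fatty acid synthesis, changed by 1.10 ± 0.15 (SE, log2). That change depends on the controls: Ndufab1 was lower in untreated than in uncultured HSCs, and its day 6 libraries overlapped the uncultured ones. Only 12% of its exon reads were unique. The 3 members not called were Ndufa6, Ndufb11 and Ndufb3. Ndufa6, a matrix-arm subunit of the LYR family that docks the acyl carrier protein, had 50.2, 51.6, 54.9 and 54.2 CPM at day 6, against 47.8, 47.2, 51.3 and 41.7 CPM in untreated HSCs, a log2 change of 0.17 ± 0.10 (SE; edgeR adjusted p = 0.150). Ndufb11, an X-linked subunit of the outer membrane arm, had 38.0, 47.3, 50.5 and 46.4 CPM at day 6, against 44.2, 40.5, 39.0 and 40.6 CPM in untreated HSCs, a log2 change of 0.15 ± 0.10 (SE; edgeR adjusted p = 0.242). Ndufb3, of the outer membrane arm and near the lowest level of all, had 4.70, 9.60, 10.7 and 7.68 CPM at day 6, against 5.43, 4.91, 6.31 and 8.32 CPM in untreated HSCs, a log2 change of 0.39 ± 0.26 (SE; edgeR adjusted p = 0.228). The groups overlapped in each of these 3 genes, and the SE of Ndufb3 leaves room for a change like the median of the members.

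**Figure D1:**
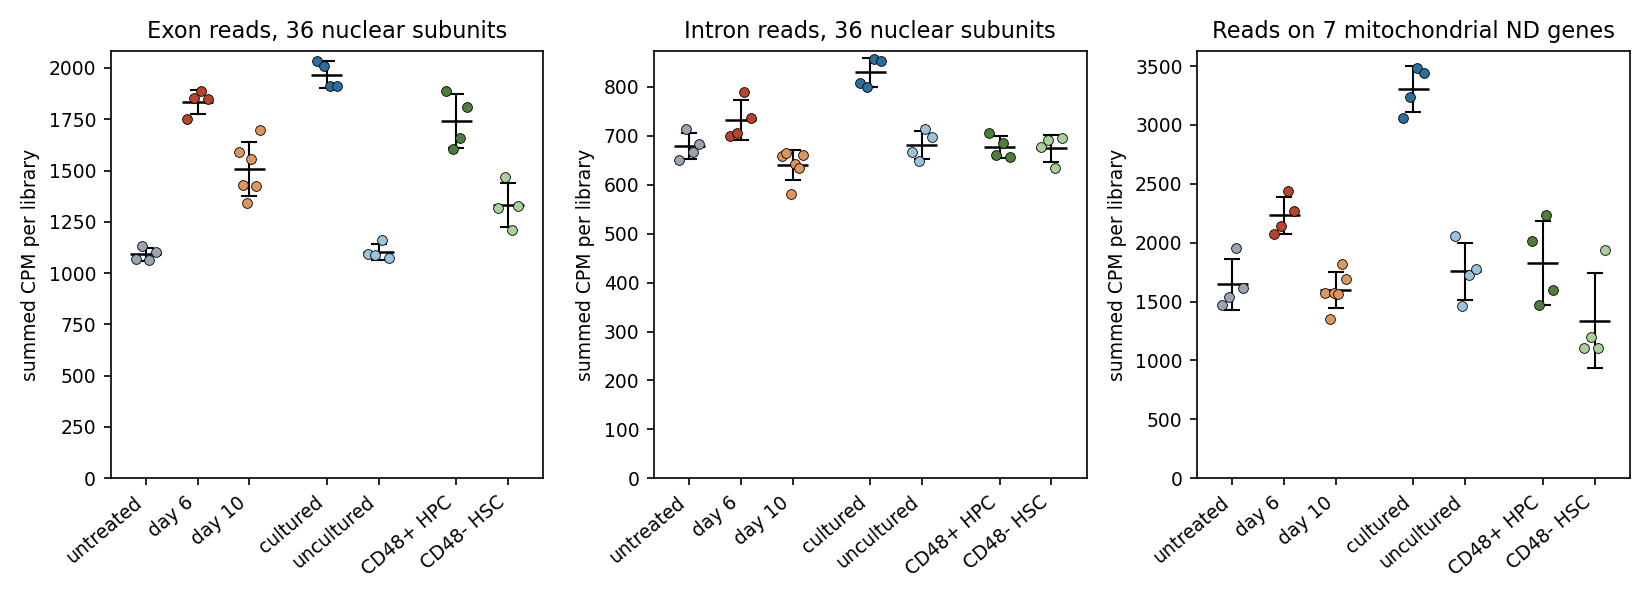
Summed levels in each of the 30 libraries (points) with the mean and SD of each group (bars), for exon reads of the 36 nuclear-encoded subunits, their intron reads, and reads of the 7 mitochondrially encoded subunits, all in CPM. The exon sum was 1835 at day 6 against 1092 in untreated HSCs, while the intron sum was 733 against 679. Ndufs4 weighs far more in the intron sum than in the exon sum.

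**Figure D2:**
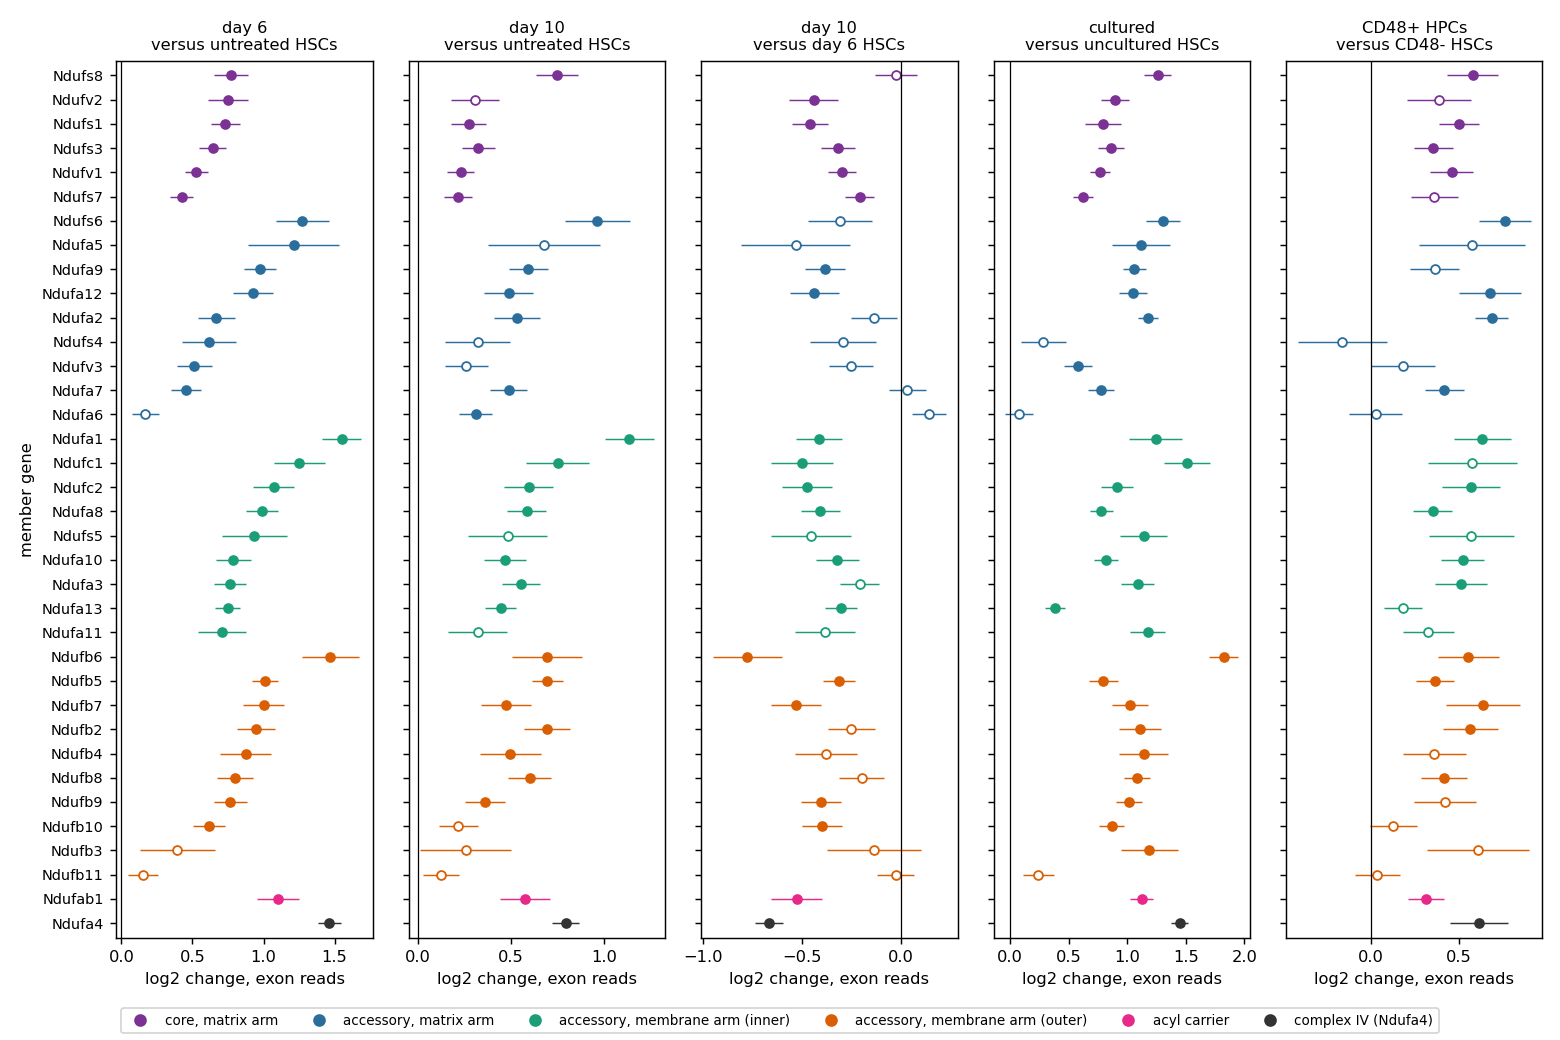
Log2 change of exon reads with its SE (horizontal bars) for 36 of the 37 tested members in 5 comparisons, filled where the adjusted p was under 0.05 and coloured by region of the complex. At day 6 and in culture most of the members shown were called higher, while Ndufa6 and Ndufb11 lay near 0.

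At day 10 the RNAs were still above the untreated level but lower than at day 6. Compared with untreated HSCs, 28 of 37 members were called higher at day 10 and none lower, where 19.9% of all genes were called higher and 18.1% lower, and the members' median log2 change was 0.49, against 0.00 over all genes. In 23 members the 6 day 10 libraries lay above the 4 untreated libraries, against 11.8% of all genes. Compared with day 6, 21 members were called lower at day 10 and none higher, where 15.9% of all genes were called lower and 14.7% higher, and the median was -0.32, against -0.02 over all genes. In 18 members the 6 day 10 libraries lay below the 4 day 6 libraries, against 12.2% of all genes. Both comparisons share the day 10 libraries. The mean exon CPM was lowest in untreated HSCs and highest at day 6 for 35 of 37 members, and the subunits' exon CPM summed to 1092 ± 31.2 in untreated HSCs, 1835 ± 57.6 at day 6 and 1507 ± 130.4 at day 10 (SD, n = 4, 4 and 6).

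The lowest, median and highest day 10 library of Ndufa4 had 126, 145 and 161 CPM. Its log2 change from untreated HSCs was 0.79 ± 0.07 (SE; edgeR adjusted p = 3.24e-06), and that from day 6 was -0.67 ± 0.07 (SE; edgeR adjusted p = 2.64e-05), so day 10 lay between both without overlap. Ndufa1 had 17.3, 20.6 and 25 CPM at day 10 in the same 3 measures and differed from untreated HSCs by 1.14 ± 0.13 on the log2 scale (SE; edgeR adjusted p = 1.61e-05). Ndufb5 had 88.7, 104 and 116 CPM and differed from untreated HSCs by 0.70 ± 0.08 on the log2 scale (SE; edgeR adjusted p = 2.56e-05). For both genes all day 10 libraries stood above the untreated ones. Ndufs1 had 38.7, 48 and 54.0 CPM at day 10 and differed from day 6 by -0.46 ± 0.09 on the log2 scale (SE; edgeR adjusted p = 0.00191). Ndufb6, of the outer membrane arm, had 14.0, 19.6 and 25.7 CPM at day 10, against 27.6, 35.7, 34.5 and 38.0 CPM at day 6, a log2 change of -0.78 ± 0.17 (SE; edgeR adjusted p = 0.00408). In untreated HSCs it had 10.9, 17.7, 9.29 and 11.2 CPM. The day 10 libraries of both genes lay below all day 6 libraries, and those of Ndufb6 overlapped the untreated ones.

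Among core subunits, 6 of 7 were called higher at day 10 than in untreated HSCs (median log2 change 0.31) and 6 of 7 lower than at day 6 (median -0.30). For accessory subunits the counts called higher than in untreated HSCs were 6 of 9 in the matrix arm, 7 of 9 in the inner and 7 of 10 in the outer membrane arm, and those called lower than at day 6 were 2 of 9, 6 of 9 and 5 of 10 in the same order. The core exception in the second comparison was Ndufs8, with 53.5, 61.5 and 79.4 CPM as the lowest, median and highest day 10 library and a log2 change from day 6 of -0.02 ± 0.11 (SE; edgeR adjusted p = 0.886). Ndufa7, of the matrix arm, had 38.3, 42.0 and 50.4 CPM at day 10, against 39.5, 39.5, 43.0 and 44.6 CPM at day 6 and 30.6, 27.0, 29.3 and 34.7 CPM in untreated HSCs. Its log2 change from day 6 was 0.03 ± 0.10 (SE; edgeR adjusted p = 0.814), so its day 10 and day 6 values overlapped. Ndufa6, the other member with its highest mean at day 10, had 47.8, 60.3 and 61.8 CPM there and was called higher than in untreated HSCs, by 0.31 ± 0.09 on the log2 scale (SE).

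Members with the largest p at day 10 against untreated HSCs were Ndufb3, Ndufb11, Ndufs4 and Ndufa11. Ndufb3 had 5.48, 7.37 and 9.31 CPM at day 10 and differed by 0.26 ± 0.24 on the log2 scale from untreated HSCs (SE; edgeR adjusted p = 0.425), and by -0.13 ± 0.24 from day 6 (SE; edgeR adjusted p = 0.702). Ndufb11 had 39.9, 45.7 and 50.7 CPM and differed by 0.13 ± 0.10 from untreated HSCs (SE, log2; edgeR adjusted p = 0.318), and by -0.02 ± 0.09 from day 6 (SE, log2; edgeR adjusted p = 0.869). Ndufs4, a matrix-arm subunit whose loss in mice causes a Leigh-like brain disease, had 10.1, 11 and 12.9 CPM at day 10, against 8.38, 10.5, 11.1 and 6.02 CPM in untreated HSCs, a log2 change of 0.32 ± 0.17 (SE; edgeR adjusted p = 0.157). These 3 genes overlapped between day 10 and untreated HSCs. Ndufa11, an inner membrane-arm subunit, had 22.6, 27.4 and 31.0 CPM at day 10, against 19.4, 29.6, 22.3 and 15.1 CPM in untreated HSCs, a log2 change of 0.32 ± 0.16 (SE; edgeR adjusted p = 0.119). Without untreated replicate 2, its highest untreated library, the log2 change was 0.52 and the edgeR adjusted p 0.0133. Over all alternative fits the log2 change of Ndufa11 ran from 0.18 to 0.52, with adjusted p-values of edgeR or DESeq2 up to 0.378.

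The second experiment compared cultured with uncultured HSCs. Of 37 members, 34 were called higher in cultured than in uncultured HSCs and none lower, where 33.8% of all genes were called higher and 33.8% lower, and the median log2 change was 1.03, against -0.01 over all genes. In 34 members the 4 cultured libraries lay above the 4 uncultured ones, against 30.9% of all genes. The subunits' exon CPM summed to 1967 ± 64.6 in cultured HSCs, against 1104 ± 38.8 in uncultured HSCs (SD, n = 4 each), 1.78 times as much. By region, 7 of 7 core subunits (median log2 change 0.79), 7 of 9 accessory subunits of the matrix arm (1.05), 9 of 9 of the inner membrane arm (1.09) and 9 of 10 of the outer membrane arm (1.05) were called higher.

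Ndufa4 had 252, 245, 244 and 248 CPM in cultured HSCs, against 104, 84.9, 90.5 and 90.6 CPM in uncultured HSCs, a log2 change of 1.45 ± 0.07 (SE; edgeR adjusted p = 5.97e-09). Ndufb6 had 38.2, 39.6, 34.4 and 34.4 CPM in cultured HSCs, against 11, 10.2, 10.8 and 10.0 CPM in uncultured HSCs, a log2 change of 1.83 ± 0.12 (SE; edgeR adjusted p = 6.60e-08). Ndufa2, a small thioredoxin-fold subunit at the NADH end, had 113, 104, 101 and 107 CPM in cultured HSCs, against 43.6, 51.3, 52.8 and 43.9 CPM in uncultured HSCs, a log2 change of 1.18 ± 0.09 (SE; edgeR adjusted p = 1.63e-07). In each of the 3 genes every cultured library lay far above every uncultured one. The 3 members not called were Ndufa6, Ndufs4 and Ndufb11. Ndufa6 had 41.6, 47.3, 49.3 and 47.5 CPM in cultured HSCs, against 47.4, 51.1, 44.7 and 35.9 CPM in uncultured HSCs, a log2 change of 0.08 ± 0.12 (SE; edgeR adjusted p = 0.582). Ndufs4 had 12.4, 9.02, 11.7 and 13.8 CPM in cultured HSCs, against 9.44, 10.8, 10.3 and 8.58 CPM in uncultured HSCs, a log2 change of 0.28 ± 0.20 (SE; edgeR adjusted p = 0.213). Ndufb11 had 50, 52.4, 46.0 and 50 CPM in cultured HSCs, against 30.3, 48.2, 46.9 and 45.3 CPM in uncultured HSCs, a log2 change of 0.24 ± 0.13 (SE; edgeR adjusted p = 0.128). All 3 overlapped between the groups. The Ndufb11 value turns on uncultured replicate 1, its lowest library. Without that library the log2 change was 0.11 (edgeR adjusted p = 0.306), and without uncultured replicates 2 and 3, over 3 times their group's median in a marker list of other cells, it was 0.42 and Ndufb11 was called higher (edgeR adjusted p = 0.0252).

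The third experiment compared CD48+ HPCs with CD48- HSCs, both 10 days after 5-FU. Of 37 members, 21 were called higher in CD48+ HPCs and none lower, where 14.0% of all genes were called higher and 12.5% lower, and the median log2 change was 0.45, against -0.01 over all genes. In 16 members the CD48+ HPC libraries lay above all CD48- HSC libraries, against 13.5% of all genes. The subunits' exon CPM summed to 1740.4 ± 131 in CD48+ HPCs, against 1331 ± 107 in CD48- HSCs (SD, n = 4 each). The count depended on single libraries: it was 6 without CD48+ HPC replicate 1, 11 without CD48+ HPC replicate 4, 10 without CD48- HSC replicate 1 and 11 without CD48- HSC replicate 3. Over all genes the calls, higher and lower together, also moved, from 2139 to 3496 with 1 library left out. Among the 6 members that were still called without CD48+ HPC replicate 1 were Ndufs1, Ndufs6, Ndufs8, Ndufa2 and Ndufa10. Called members were 5 of 7 core subunits (median log2 change 0.45), 4 of 9 accessory subunits of the matrix arm (0.42), 5 of 9 of the inner membrane arm (0.52) and 5 of 10 of the outer membrane arm (0.42).

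Ndufa2 had 82.7, 77.2, 77.8 and 84.8 CPM in CD48+ HPCs, against 46.6, 55.9, 50.6 and 48.3 CPM in CD48- HSCs, a log2 change of 0.69 ± 0.09 (SE; edgeR adjusted p = 0.00058). Ndufs6, a zinc-binding subunit at the NADH end, had 18, 15.6, 16.5 and 17.9 CPM in CD48+ HPCs, against 10.0, 10.3, 9.62 and 10.4 CPM in CD48- HSCs, a log2 change of 0.76 ± 0.15 (SE; edgeR adjusted p = 0.00389). Ndufa2 and Ndufs6 did not overlap between the groups. The largest p belonged to Ndufa6, Ndufb11, Ndufs4 and Ndufb10. Ndufa6 had 49.4, 58.8, 54.6 and 62.1 CPM in CD48+ HPCs, against 63.5, 61.7, 57.6 and 38.8 CPM in CD48- HSCs, a log2 change of 0.03 ± 0.15 (SE; edgeR adjusted p = 0.921). Ndufb11 had 49.1, 51.8, 46.2 and 57.1 CPM in CD48+ HPCs, against 50.5, 58.8, 50.7 and 40 CPM in CD48- HSCs, a log2 change of 0.03 ± 0.13 (SE; edgeR adjusted p = 0.870). Ndufs4 had 12.3, 8.90, 9.43 and 7.54 CPM in CD48+ HPCs, against 11.2, 8.00, 8.43 and 15.7 CPM in CD48- HSCs, a log2 change of -0.16 ± 0.25 (SE; edgeR adjusted p = 0.670). CD48- HSC replicate 4 was the lowest library of its group in Ndufa6 and Ndufb11 and the highest in Ndufs4. The log2 changes without it were -0.11 for Ndufa6, -0.06 for Ndufb11 and 0.07 for Ndufs4. Ndufb10, a cysteine-rich subunit on the outer side of the membrane arm, had 42.8, 35.5, 34.1 and 41.9 CPM in CD48+ HPCs, against 33.4, 41.6, 29.6 and 37.5 CPM in CD48- HSCs, a log2 change of 0.13 ± 0.13 (SE; edgeR adjusted p = 0.520).

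All 21 members called in the CD48 comparison were among the 34 called at day 6 and among the 34 called in culture, and 2 of 37 tested members, Ndufa6 and Ndufb11, were called in none of these 3. Their level per kb of exon was not low: Ndufa6 ranked between 2 and 10 of 37 across the 7 groups and Ndufb11 between 9 and 20. Ndufa6 had 83.9 ± 7.04 CPM per kb in untreated HSCs and 82.9 ± 5.93 in cultured HSCs (SD, n = 4 each). The window of Ndufa6 printed above holds an NRF1 match, and that of Ndufb11 none of the motifs. Among the 33 members with a window, 16 of 17 with a motif and 14 of 16 without were called higher at day 6, with median log2 changes of 0.87 and 0.77. In culture 15 of 17 with a motif and 15 of 16 without were called higher, with medians of 1.09 and 0.88, and in CD48+ HPCs 8 of 17 and 10 of 16, with medians of 0.41 and 0.44. The difference between members with and without a motif was not tested. Ndufb11 overlaps Rbm10 on the opposite strand, and since the library kit does not mark strand, reads of the overlap cannot be assigned. The same holds for Ndufa1 with Rnf113a1, Ndufa13 with Tssk6, Ndufa2 with Tmco6 and Ndufa4l2 with Shmt2.

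**Figure D3:**
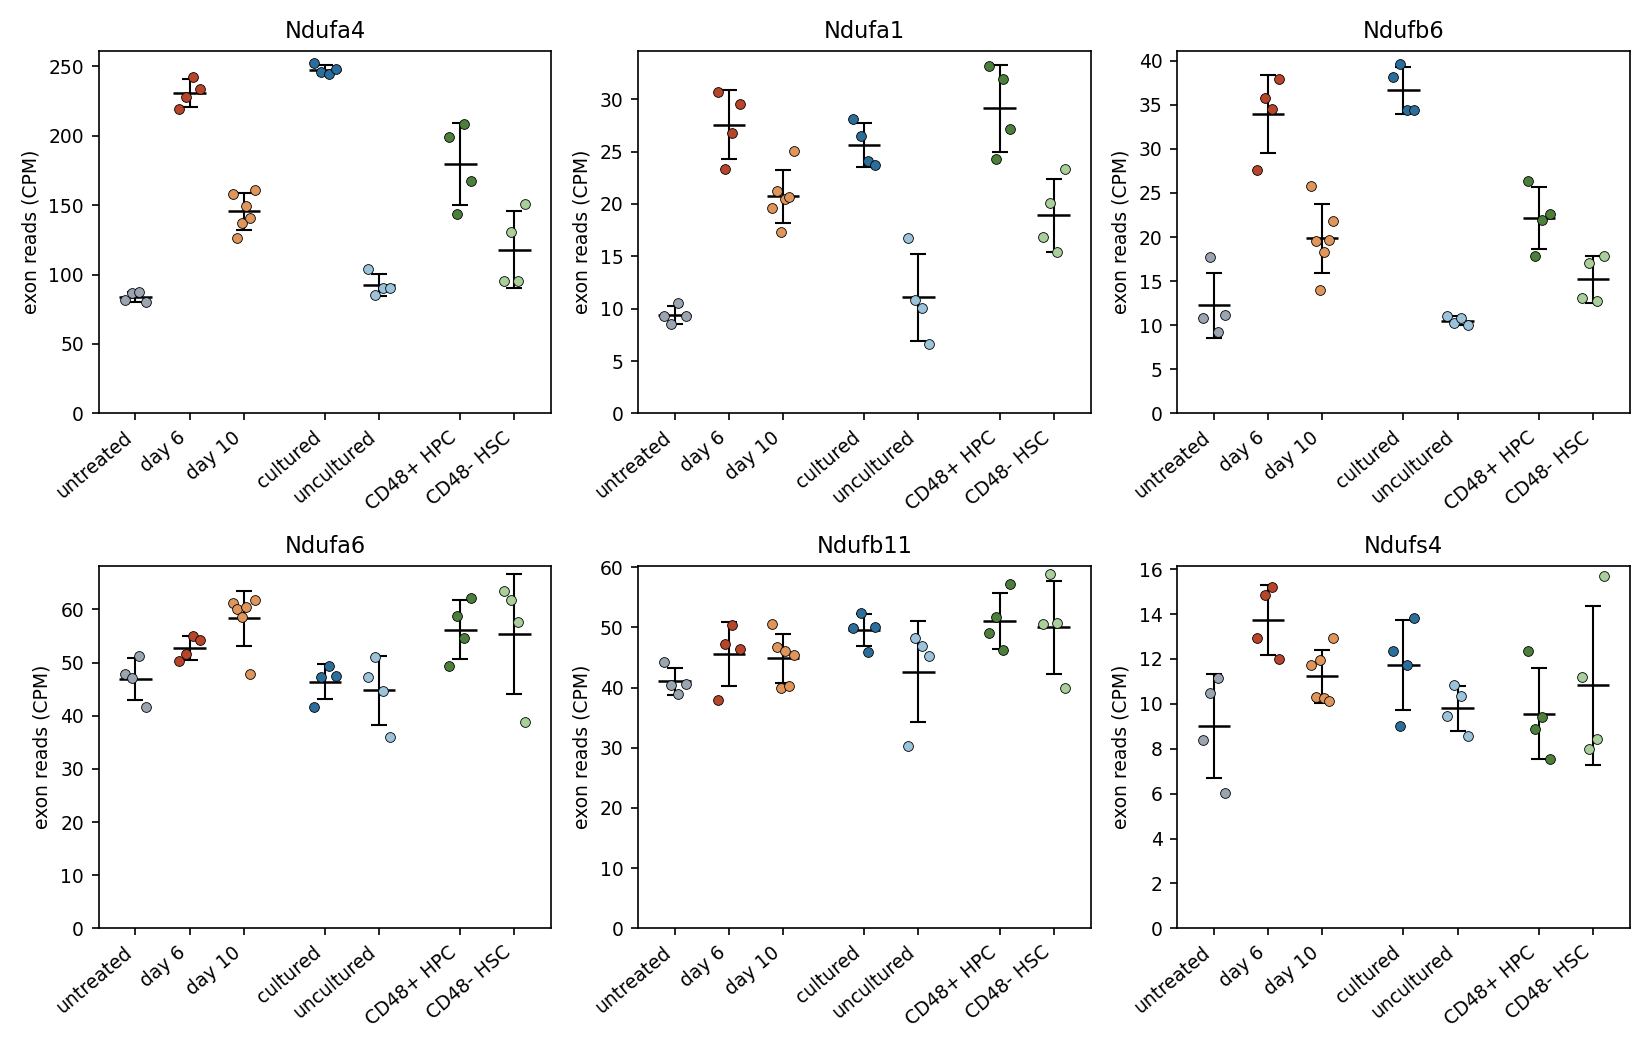
Exon CPM of Ndufa4, Ndufa1, Ndufb6, Ndufa6, Ndufb11 and Ndufs4 in each library (points) with the mean and SD of each group (bars). Ndufa4 lay between 219 and 242 CPM at day 6 and between 80.2 and 87.3 CPM in untreated HSCs, while Ndufa6 and Ndufb11 overlapped.

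The culture and day 6 changes were compared directly in a fit of all 30 libraries. Their difference was called for 2 of 37 members, where 6.36% of all genes were called higher and 8.77% lower. Ndufa2 changed by 0.48 ± 0.15 more on the log2 scale in culture than at day 6 (SE; edgeR adjusted p = 0.0323), with 57.8, 58.6, 79.4 and 64.8 CPM at day 6, against 35.2, 41.8, 36.2 and 50.9 CPM in untreated HSCs. Ndufa13, also called GRIM-19 and a subunit of the inner membrane arm, changed by 0.39 ± 0.13 less (log2 difference -0.39, SE; edgeR adjusted p = 0.0472). It had 95.3, 98.1, 105 and 88.0 CPM in cultured HSCs, against 66.2, 73.8, 82.6 and 78.5 CPM in uncultured HSCs. At day 6 it had 104, 106, 102 and 102 CPM, against 58.0, 62.2, 64.6 and 62.8 CPM in untreated HSCs. With 1 of the 16 libraries left out at a time, Ndufa2 was still called in 7 of 16 fits (edgeR adjusted p from 0.00837 to 0.127) and Ndufa13 in 2 of 16 (edgeR adjusted p from 0.0357 to 0.117).

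Groups that hold like cells in different experiments differed in some members. Untreated HSCs of the 5-FU experiment, set against uncultured HSCs, were called higher in 1 of 37 members and lower in 2, where 2.09% of all genes were called higher and 2.56% lower. Ndufab1 had 27.0, 33.1, 24.3 and 19.4 CPM in untreated HSCs, against 42.4, 44.6, 56.6 and 52.8 CPM in uncultured HSCs, a log2 difference of -0.92 ± 0.13 (SE; edgeR adjusted p = 6.57e-05). Ndufs6 had 7.45, 6.72, 5.01 and 6.45 CPM in untreated HSCs, against 11.4, 9.93, 10.3 and 14.0 CPM in uncultured HSCs, a log2 difference of -0.83 ± 0.15 (SE; edgeR adjusted p = 0.0021). Ndufa7 had 30.6, 27.0, 29.3 and 34.7 CPM in untreated HSCs, against 19.9, 22.4, 25.3 and 22.2 CPM in uncultured HSCs, a log2 difference of 0.44 ± 0.10 (SE; edgeR adjusted p = 0.0126). None of the 3 overlapped. With uncultured HSCs as controls of the day 6 group, 31 members were called higher and none lower. Ndufs7 then changed by 0.21 on the log2 scale and was not called (edgeR adjusted p = 0.0849), and Ndufb3 was called higher both at day 6 (log2 change 1.00; edgeR adjusted p = 0.00236) and at day 10 (log2 change 0.86; edgeR adjusted p = 0.0057). Against the same controls 25 members were called higher at day 10 and 1 lower, Ndufab1, which differed by -0.35 on the log2 scale (edgeR adjusted p = 0.0124), named after its values were seen. At day 6 Ndufab1 had 54.3, 60.9, 51.7 and 55.5 CPM, which overlapped its uncultured values. Shares of all genes called against these controls are not given here. Day 10 HSCs of the 5-FU experiment, set against CD48- HSCs of the CD48 experiment, were called higher in 7 members, led by Ndufa9 (log2 difference 0.63; edgeR adjusted p = 0.000411), and lower in Ndufab1 (log2 difference -0.50 ± 0.11, SE; edgeR adjusted p = 0.00304), where 8.87% of all genes were called higher and 7.37% lower. Only 12% of the exon reads of Ndufab1 were unique, and with unique reads alone its difference between the day 10 groups was -0.44 and not called (edgeR adjusted p = 0.106). That total of 8 was 13 without day 10 replicate 2, day 10 replicate 3 or CD48- HSC replicate 2, and 5 without CD48- HSC replicate 3. Experiment and group cannot be told apart in these contrasts.

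Intron reads can come from unspliced RNA, and the count files list them beside the exon reads. Whether other sources added to the intron reads was not tested. They made up between 2.14% and 95.6% of a member's reads, with a median of 27.4%, and the extreme was Ndufs4, whose gene spans chr13:114287795-114388094 (mm10, - strand) with 5 exons. At day 6, 2 of 37 members were called higher on intron reads than in untreated HSCs and none lower, with 2 lower at an unadjusted p under 0.05, where 14.2% of all genes were called higher and 13.9% lower. The members' median log2 change of intron reads was 0.04, against -0.02 over all genes. Their intron CPM summed to 733 ± 40.8 at day 6, against 679 ± 26.4 in untreated HSCs (SD, n = 4 each), 1.08 times as much, where the exon sum was 1.68 times as much. Ndufs4 alone held 150 to 166 intron CPM in untreated HSCs and 145 to 169 at day 6, but 6.02 to 11.1 exon CPM in untreated HSCs. The exon and intron sums thus weigh the genes differently. Both intron calls were lost when single libraries were left out: Ndufa13 (log2 change 0.44 ± 0.15, SE; edgeR adjusted p = 0.0335) without any of 6 of the 8 libraries, which leaves untreated replicate 1 and day 6 replicate 2, and Ndufab1 (log2 change 0.47 ± 0.16, SE; edgeR adjusted p = 0.037) without any of 5, which are untreated replicates 3 and 4 and day 6 replicates 1 to 3. Ndufa13 had 29.7, 24.6, 26.2 and 30.3 intron CPM at day 6, against 21.9, 20.3, 19.6 and 19.7 in untreated HSCs. Ndufab1 had 34.4, 33.7, 43.7 and 33.4 intron CPM at day 6, against 28.7, 31.2, 19.3 and 25.3 in untreated HSCs. Ndufs1 had 62.5, 65.0, 71.5 and 68.5 intron CPM at day 6, against 51.5, 59.0, 60.5 and 52.9 in untreated HSCs, and missed the threshold (log2 change 0.25 ± 0.09, SE; edgeR adjusted p = 0.0501), which it passed without untreated replicate 3 (edgeR adjusted p = 0.0438). Over all alternative fits its edgeR adjusted p ran from 0.0438 to 0.172.

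The difference between the exon and the intron change was tested within libraries. At day 6 the exon change exceeded the intron change in 20 of 37 members and the reverse was called in none, where 8.23% of 11780 genes were called in the first direction and 7.72% in the second. The difference was positive in all 37 tested members, with a median of 0.67 on the log2 scale, against -0.04 over all genes. The count was 11 without day 6 replicate 2. Ndufv1 had 14.5, 17.6, 17.8 and 18 intron CPM at day 6, against 17.8, 23.3, 26.6 and 21.2 in untreated HSCs, an intron change of -0.39 ± 0.14 that was not called (SE, log2; edgeR adjusted p = 0.0519). Its exon change minus its intron change was 0.91 ± 0.14 (SE, log2; edgeR adjusted p = 0.000242). Ndufa4 had 6.77, 10.5, 8.58 and 7.43 intron CPM at day 6, against 5.37, 6.25, 8.77 and 6.22 in untreated HSCs, and a difference of 1.14 ± 0.18 (SE, log2; edgeR adjusted p = 0.000288). Ndufa9, a matrix-arm subunit that binds NADPH, had 36.8, 30.5, 38.2 and 33.7 intron CPM at day 6, against 37.7, 27.1, 36.5 and 42.9 in untreated HSCs, and a difference of 1.02 ± 0.17 (SE, log2; edgeR adjusted p = 0.00049). The intron values of Ndufv1, Ndufa4 and Ndufa9 overlapped between the groups.

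At day 10 the exon change exceeded the intron change from untreated HSCs in 14 of 37 members, with none called in the reverse direction, where 4.26% of all genes were called in the first and 3.61% in the second, and the median was 0.63. The count was 9 without untreated replicate 3 and 9 without day 10 replicate 6. Ndufv1 had 14.7, 16.4 and 17.8 intron CPM as the lowest, median and highest day 10 library and was the 1 member called lower on intron reads than untreated HSCs (log2 change -0.45 ± 0.13, SE; edgeR adjusted p = 0.0231), where 9.7% of all genes were called higher and 9.37% lower. That call was lost without untreated replicate 2 (edgeR adjusted p = 0.0599) or 3 (edgeR adjusted p = 0.0916). Its exon change minus its intron change was 0.67 ± 0.13 (SE, log2; edgeR adjusted p = 0.00333), that of Ndufa4 0.84 ± 0.17 (SE, log2; edgeR adjusted p = 0.00444) and that of Ndufb2, of the outer membrane arm, 0.79 ± 0.16 (SE, log2; edgeR adjusted p = 0.00567). Against day 6, Ndufab1 and Ndufv2 were called lower on intron reads at day 10, where 8.65% of all genes were called lower and 9.41% higher. Ndufab1 had 20.6, 25.1 and 29.0 intron CPM at day 10 and changed by -0.52 ± 0.14 (SE, log2; edgeR adjusted p = 0.0212), a call lost without day 6 replicate 3 (edgeR adjusted p = 0.114). Ndufv2 had 35.6, 39.6 and 42.8 intron CPM at day 10, against 53.9, 49.5, 54.7 and 50.9 at day 6, and changed by -0.41 ± 0.11 (SE, log2; edgeR adjusted p = 0.022), a call lost without day 6 replicate 1 (edgeR adjusted p = 0.0531) or 3 (edgeR adjusted p = 0.0887). Between day 10 and day 6 edgeR called 0 of 37 members for the difference of exon and intron changes, with 3 lower at an unadjusted p under 0.05, where 0.705% of all genes were called higher and 0.985% lower.

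Culture changed intron reads as well. Of 36 members tested on intron reads, 16 were called higher in cultured than in uncultured HSCs and 1 lower, where 23.8% of all genes were called higher and 24.4% lower, with a median log2 change of 0.58, against -0.01 over all genes. Intron CPM of the subunits summed to 830.1 ± 30.1 in cultured HSCs, against 682 ± 29.0 in uncultured HSCs (SD, n = 4 each). Ndufa10, a membrane-arm subunit related to nucleoside kinases, had 51.9, 54.1, 62.3 and 58.4 intron CPM in cultured HSCs, against 31.2, 28.9, 35.7 and 23.3 in uncultured HSCs, a log2 change of 0.93 ± 0.14 (SE; edgeR adjusted p = 0.000354). Ndufb5 had 25.9, 28.1, 27.2 and 33.7 intron CPM in cultured HSCs, against 16.7, 16.8, 14.2 and 18.4 in uncultured HSCs, a log2 change of 0.80 ± 0.15 (SE; edgeR adjusted p = 0.00129). Ndufs8 had 7.60, 7.80, 10.7 and 8.71 intron CPM in cultured HSCs, against 4.14, 3.20, 3.95 and 3.51 in uncultured HSCs, a log2 change of 1.23 ± 0.24 (SE; edgeR adjusted p = 0.00142). In these 3 the cultured libraries lay above the uncultured ones, as in their exon reads. Ndufs4 was the exception, with 117, 115, 135 and 123 intron CPM in cultured HSCs, against 145, 173, 151 and 159 in uncultured HSCs, a log2 change of -0.36 ± 0.09 (SE; edgeR adjusted p = 0.00763), while its exon change was not called.

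In culture the exon change exceeded the intron change in 10 of 36 members, with none called in the reverse direction, where 11% of all genes were called in the first direction and 12% in the second, and the median was 0.38, against -0.05 over all genes. The count was 6 without cultured replicate 2. Ndufb2 had 40.5, 37.3, 33.5 and 41.2 exon CPM in cultured HSCs, against 11.6, 16.5, 19.6 and 24.2 in uncultured HSCs, with 15.0, 13.5, 11.8 and 13.3 intron CPM in cultured HSCs, against 12.3, 18.5, 20.9 and 17.6 in uncultured HSCs. The difference of its changes was 1.5 ± 0.20 (SE, log2; edgeR adjusted p = 0.000137), that of Ndufv1 1.14 ± 0.17 (SE, log2; edgeR adjusted p = 0.000315) and that of Ndufs3 0.93 ± 0.16 (SE, log2; edgeR adjusted p = 0.00105). In the CD48 comparison 1 of 37 members was called higher on intron reads, where 6.88% of all genes were called higher and 5.64% lower. That member was Ndufa4, with 11, 8.38, 7.61 and 9.36 intron CPM in CD48+ HPCs, against 6.02, 5.83, 3.50 and 4.44 in CD48- HSCs (log2 change 0.89 ± 0.24, SE; edgeR adjusted p = 0.0358), a call that was lost without any one of CD48+ HPC replicates 1, 2 and 4 and CD48- HSC replicates 3 and 4 (edgeR adjusted p from 0.0582 to 0.108). For the difference of exon and intron changes edgeR called 0 of 37 members, where 0.0172% of all genes were called higher and 0.0258% lower, with 14 higher at an unadjusted p under 0.05. The smallest p was that of Ndufc2, a membrane-arm subunit, with a difference of 1.05 ± 0.26 (SE, log2; edgeR adjusted p = 0.190).

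**Figure D4:**
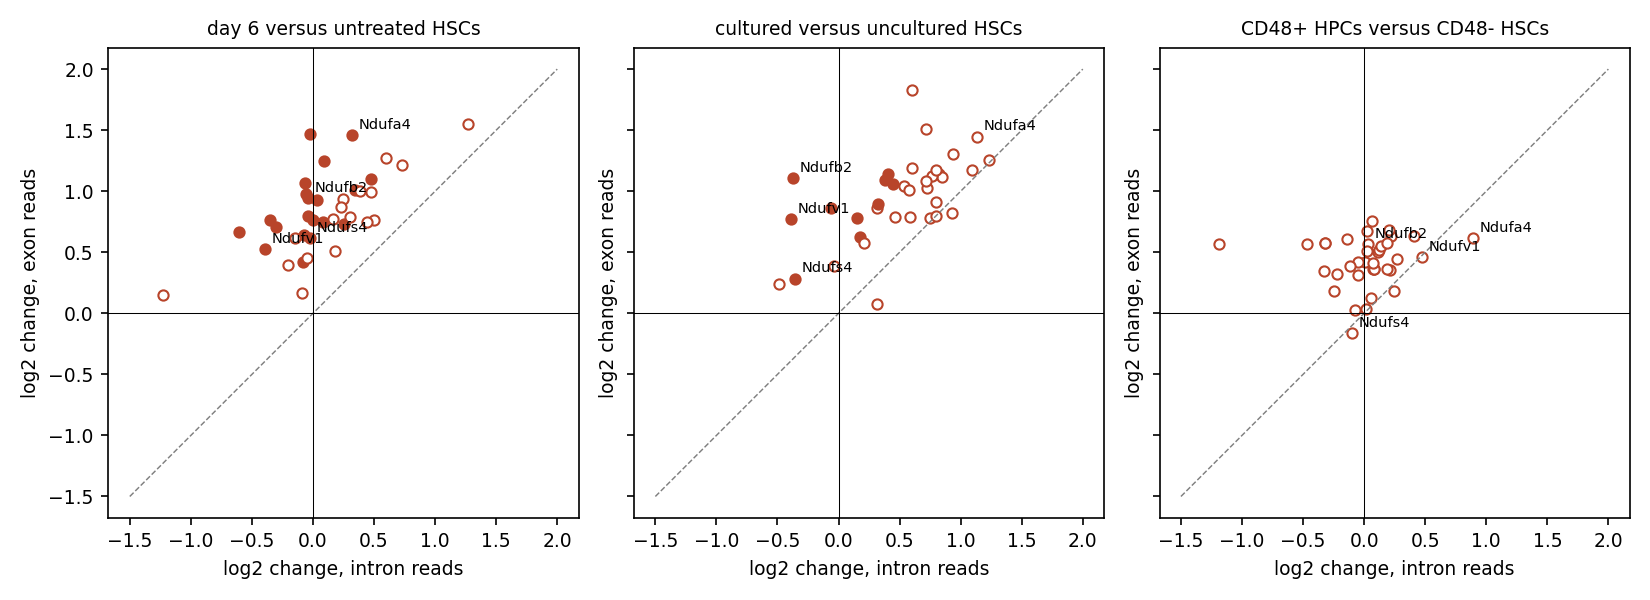
Log2 change of exon reads (vertical axis) against log2 change of intron reads (horizontal axis) for each member at day 6, in culture and in CD48+ HPCs, filled where the difference of both changes had an adjusted p under 0.05; the dashed line marks equal change. At day 6 all 37 members lay above the line on the scale of the fitted difference, and in culture 34 of 36.

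The 7 subunits encoded in mitochondrial DNA form the core of the membrane arm. Their entries have no annotated exon, so the files count their reads as intron reads, which were scaled here by the exon library size. ND4L, which overlaps ND4, had 0 reads in all libraries. At day 6, 4 of 6 were called higher than in untreated HSCs, where 25.7% of all genes were called higher, with ND1 at 592, 609, 709 and 645 CPM, against 296, 311, 452 and 307 CPM in untreated HSCs (log2 change 0.91 ± 0.15, SE; edgeR adjusted p = 0.000113). ND2 changed by 0.73 ± 0.15 (SE, log2; edgeR adjusted p = 0.000756), ND5 by 0.37 ± 0.09 (SE, log2; edgeR adjusted p = 0.00374) and ND4 by 0.23 ± 0.09 (SE, log2; edgeR adjusted p = 0.0349). The call of ND4 was lost without any one of untreated replicates 1, 2 and 4 and day 6 replicates 2, 3 and 4. At day 10 edgeR called 0 of 6 against untreated HSCs, with 2 lower at an unadjusted p under 0.05, ND3 and ND6, where 19.9% of all genes were called higher and 18.1% lower. Without day 10 replicate 5 both were called lower, and without replicate 3 ND6. ND1 then had 277, 367 and 456 CPM as its lowest, median and highest library. Against day 6, 4 of 6 were called lower at day 10, where 16.0% of all genes were called lower, among them ND1 by -0.81 ± 0.13 (SE, log2; edgeR adjusted p = 0.000491). The mitochondrial subunits summed to 1646 ± 214 CPM in untreated HSCs, 2232 ± 159 at day 6 and 1596 ± 153 at day 10 (SD, n = 4, 4 and 6).

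In cultured HSCs 5 of 6 mitochondrial subunits were called higher, where 33.8% of all genes were, and ND1 had 1329, 1415, 1531 and 1505 CPM, against 546, 344, 436 and 416 CPM in uncultured HSCs (log2 change 1.76 ± 0.11, SE; edgeR adjusted p = 3.88e-08). No uncultured library came near a cultured one. ND6, the 1 subunit on the other strand of mitochondrial DNA, had 124, 114, 105 and 113 CPM in cultured HSCs, against 106, 109, 101 and 123 CPM in uncultured HSCs, and was not called (log2 change 0.08 ± 0.08, SE; edgeR adjusted p = 0.397). Since the library kit does not mark strand, reads over ND6 cannot be assigned to 1 strand. In CD48+ HPCs 4 of 6 were called higher, where 14.0% of all genes were, and the count was 2 without CD48+ HPC replicate 1 and 6 without CD48- HSC replicate 4. ND2 had 97.9, 74.3, 111 and 87.9 CPM in CD48+ HPCs, against 49.4, 51.9, 57.7 and 80.9 CPM in CD48- HSCs (log2 change 0.64 ± 0.17, SE; edgeR adjusted p = 0.0162). CD48- HSC replicate 4 was the library that overlapped. ND6 had 144, 131, 143 and 125 CPM in CD48+ HPCs, against 102, 107, 102 and 114 CPM in CD48- HSCs, without overlap. Unlike in culture, ND6 was called higher here, by 0.36 ± 0.08 (SE, log2, with edgeR adjusted p = 0.00903). Over all alternative fits the edgeR adjusted p of ND6 ran from 0.00851 to 0.0396. ND1 was called higher by 0.67 ± 0.23 (SE, log2; edgeR adjusted p = 0.0491), a call lost without any one of CD48- HSC replicates 1, 2 and 3 and CD48+ HPC replicates 1, 3 and 4 (edgeR adjusted p from 0.055 to 0.129).

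**Figure D5:**
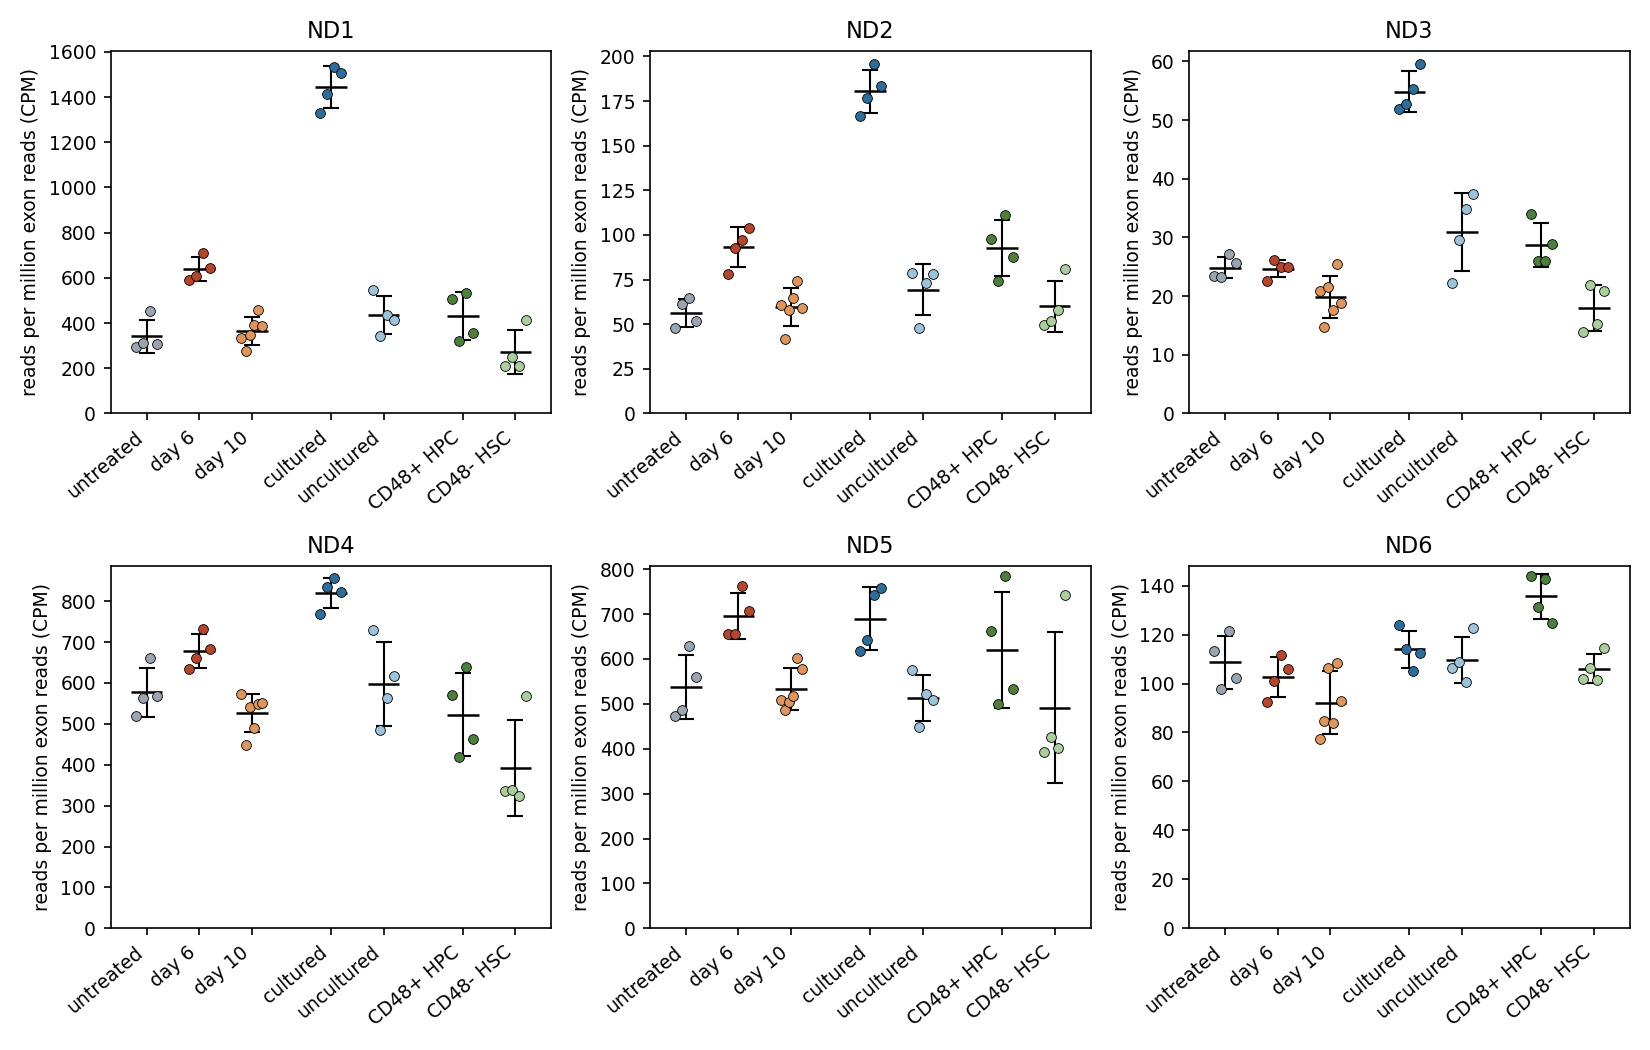
CPM of 6 mitochondrially encoded subunits in each library (points) with the mean and SD of each group (bars). ND1 lay between 1329 and 1531 CPM in cultured HSCs and between 344 and 546 CPM in uncultured HSCs. ND6 overlapped between cultured and uncultured HSCs, but not between CD48+ HPCs and CD48- HSCs.

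Other genes of the respiratory chain were counted from lists. At day 6, 15 of 15 tested subunits of ATP synthase (median log2 change 1.11), 9 of 9 of complex III (0.99) and 9 of 11 genes listed with complex IV (1.13) were called higher. In the complex IV list 1 gene, Cox7a2l, was called lower (log2 change -0.43 ± 0.08, SE). The share of all genes was the 25.7% above in each direction. In culture the counts called higher for ATP synthase, complex III and the complex IV list were 15 of 15, 9 of 9 and 10 of 11, where 33.8% of all genes were. In CD48+ HPCs they were 9 of 15, 5 of 9 and 7 of 11, where 14.0% of all genes were. Calls over all genes in the CD48 comparison, higher and lower together, ran from 2139 to 3496 with 1 library left out. Other enzymes that feed ubiquinone rose in 7 of 9 cases at day 6, with Sdhd, a membrane anchor of succinate dehydrogenase, at 1.2 ± 0.08, Sdha, its flavin subunit, at 0.73 ± 0.08 and Sdhb, its iron-sulfur subunit, at 1.26 ± 0.16 (SE, log2). The 2 that fell were Sqrdl, which oxidises sulfide, at -0.89 ± 0.16 and Prodh, proline dehydrogenase, at -0.81 ± 0.10 (SE, log2), both singled out after their values were seen.

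Assembly factors build complex I and leave it. At day 6, 8 of 17 were called higher and 2 lower, with a median log2 change of 0.35, where 25.7% of all genes were called in each direction. In culture 7 were called higher and 1 lower (median 0.39), where 33.8% of all genes were called in each direction. Nubpl, which delivers iron-sulfur clusters, changed by 1.10 ± 0.21, Ndufaf4 by 0.99 ± 0.23 and Ecsit by 0.68 ± 0.17 at day 6 (SE, log2). The 2 called lower were Dmac2 at -0.41 ± 0.10 and Ndufaf3 at -0.53 ± 0.21 (SE, log2), named after their values were seen. Among 8 regulators of mitochondrial genes, 4 were called higher and 1 lower both at day 6 and in culture, against the same shares of all genes. The lower one was the coactivator Ppargc1a, with a log2 change of -1.15 ± 0.36 at day 6 and -2.60 ± 0.34 in culture (SE). Of the regulators with the smallest p at day 6, Pprc1, a coactivator related to Ppargc1a, changed by 0.56 ± 0.13 and Tfam, which packages and transcribes mitochondrial DNA, by 0.37 ± 0.11 (SE, log2).

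Several other measures moved with the same groups. The 4 cycling markers Mki67, Top2a, Cdk1 and Ccnb1 summed to 269.6 ± 126 CPM in untreated HSCs, 1116 ± 76.5 at day 6 and 811 ± 133 at day 10, to 1324 ± 46.7 in cultured and 317 ± 145 in uncultured HSCs, and to 1302 ± 47.4 in CD48+ HPCs and 588 ± 139 CPM in CD48- HSCs (SD, n = 4, and 6 at day 10). The share of all reads on introns was 57.5% at day 6, against 65.1% in untreated HSCs, 56.3% in cultured against 66.4% in uncultured HSCs, and 59.7% in CD48+ HPCs against 63.6% in CD48- HSCs. Of the macrophage markers, 9 of 9 tested were called higher at day 6, with sums of 39.4 to 540.2 CPM, against 32.7 to 51.9 CPM in untreated HSCs. In CD48+ HPCs 7 of 9 were called higher, with sums of 167 to 1233 CPM, against 73.5 to 337 CPM in CD48- HSCs. In cultured HSCs the 10 listed macrophage markers summed to 4.69 to 8.88 CPM, against 33.8 to 40 CPM for the same list in uncultured HSCs. Of the list, C1qa, C1qb, Cd5l, Adgre1, Vcam1 and Marco were at 0 in cultured HSCs, so the sum there came from Csf1r, Mrc1, C1qc and Lgmn. Neutrophil and monocyte markers summed to 10.1 to 15.7 CPM in cultured HSCs, against 2159, 99.0, 79.1 and 1466 CPM in uncultured replicates 1 to 4. Erythroid markers summed to 475 to 649 CPM in cultured HSCs, against 2948, 69.4, 4623 and 74.0 CPM in uncultured replicates 1 to 4. Uncultured libraries thus differed among themselves in both lists, and each had more neutrophil and monocyte markers than any cultured one. Of the erythroid markers, 8 of 9 were called lower and 1 higher at day 6, with sums of 313 to 441 CPM, against 2407 to 6339 CPM in untreated HSCs. The lymphoid markers summed to 113 to 139 CPM in CD48+ HPCs, against 18.4 to 25.7 CPM in CD48- HSCs, and neutrophil and monocyte markers to 122 to 438 CPM, against 40.6 to 105 CPM. The erythroid markers summed to 306 to 405 CPM in CD48+ HPCs, against 252, 318, 9435 and 307 CPM in CD48- HSC replicates 1 to 4. Of 8 HSC markers, 7 were called lower both in cultured HSCs and in CD48+ HPCs, 3 at day 6 and 3 at day 10, and 2 were called higher at day 10 and 1 in culture. Their sums were 2529 to 2644 CPM at day 6 and 2256 to 3236 CPM at day 10, against 4600.4 to 5407 CPM in untreated HSCs, so that neither 5-FU group overlapped the untreated one. Beside all these marker counts, 25.7% of all genes were called higher and 25.7% lower at day 6, and 19.9% and 18.1% at day 10. In culture the shares were 33.8% higher and 33.8% lower, and in CD48+ HPCs 14.0% and 12.5%. Leaving out 5 libraries whose sum for a marker list of other cells was over 3 times the median of their group gave 34 members called higher at day 6, 26 at day 10 and 35 in culture, but 11 in CD48+ HPCs. In the uncultured group this left replicates 1 and 4, which held the most neutrophil and monocyte markers. In the CD48 experiment it left out CD48- HSC replicate 3 alone. Shares of all genes called without the 5 libraries are not given here. The part that cycling cells, intron share, HSC markers or other cell types have in the members' changes was not tested.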

How the data were processed

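RNA of sorted mouse bone marrow cells was sequenced in 30 libraries of 7 groups, prepared with a Nextera XT kit per the labels' protocols. The deposited files hold, per gene, the authors' whole-number counts of reads on exons and introns. The build is mm10 per the submitters' processing notes, and the sources used here do not name the aligner, the counter or its strand setting. Genes with several entries were summed. Libraries held 5208722 to 12243208 exon reads, of which 80.7% to 83.1% were unique. The members and all gene lists were chosen with earlier results of these data known.

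Each experiment was fitted on its own with edgeR 4.0.16 in R 4.3.3 (TMM factors, filterByExpr, quasi-likelihood F test, Benjamini-Hochberg adjustment over all genes, threshold 0.05). Intron counts had a fit of their own, the exon-minus-intron difference a fit with the library as a block, and contrasts across experiments a fit of all 30 libraries. SE is the log2 change divided by the square root of F. In the text were named, per comparison, the 3 members with the smallest p, those not called (the 4 with the largest p where more than 8), and the core subunits at day 6; 1 member that the rule names is not reported here by name or value. Of 7 members under 70% of exon reads were unique, among them Ndufs3 and Ndufa7 with 0%. Library pairs within groups differed beyond counting noise in all 51 cases, so none was counted as a duplicate. The exon and exon-minus-intron fits were tested on simulated counts. Alternatives were DESeq2 1.42.0, other size factors, no filter, unique reads, a replicate block, uncultured controls and leaving out libraries.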

Additional observations from a re-analysis of the deposited data

Results flagged for a closer look

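Of 88 groups of 4 to 6 libraries checked, 4 held a library far from the others, where chance gives about 1 in 20. Ndufb11 had 30.3 exon CPM in uncultured HSC replicate 1, against 45.3 to 48.2 CPM in the other three. Ndufv1 had 105 exon CPM in day 6 replicate 2, against 88.1 to 90.1 CPM in the other three. The summed intron CPM of the subunits was 582 in day 10 replicate 3, against 635 to 665 in the other five. The summed CPM of the mitochondrially encoded subunits was 1941 in CD48- HSC replicate 4, against 1106 to 1196 in the other three.

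The changes in culture and at day 6 differed for 2 members in the test of the difference itself. The culture change of Ndufa2 minus its day 6 change was 0.48 ± 0.15, and that of Ndufa13 was -0.39 ± 0.13 (SE, log2; edgeR adjusted p = 0.0323 for Ndufa2 and 0.0472 for Ndufa13). In the same test 6.36% of all genes were called higher and 8.77% lower. With single libraries left out, Ndufa2 was called in 7 of 16 fits and Ndufa13 in 2 of 16. With unique exon reads the edgeR adjusted p of Ndufa13 was 0.0527. Every untreated library of Ndufa13 lay below every uncultured one.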

How the results depend on the processing

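Depth limits the lowest members, such as Ndufb3 and Ndufa4l2, and the intron fits. The counts of members called on exon reads at day 6 and in culture were 34 under DESeq2, under a replicate block and with any single library left out. With the replicate block the counts were 22 at day 10, 18 for day 10 against day 6 and 14 in CD48+ HPCs. Shares of all genes called in the DESeq2 and block fits are not given here. Deviations from the group mean were correlated over genes between same-numbered libraries, and 2 of 20 correlations were over 0.1, with a range of -0.194 to 0.135. The labels do not state whether same-numbered libraries are paired, and these correlations cannot decide it.

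Without the 5 libraries over 3 times their group's median in markers of other cells, an alternative chosen after seeing the data, CD48+ HPCs had 11 members called on exon reads, the exon-minus-intron counts were 13 at day 6 and 9 at day 10, and the day 10 groups of the 2 experiments differed in 4. Without those libraries and with the replicate block alike, intron counts were 0 at day 6, 0 at day 10, 1 for day 10 against day 6 and 0 in CD48+ HPCs. The culture-minus-day-6 difference was called for 1 member without a filter, with unique reads and without those libraries. With the block, 2 mitochondrial subunits were called lower at day 10. The cause was not tested.

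With 1 library left out, members called on exon reads were 25 to 31 at day 10, 16 to 27 for day 10 against day 6 and 6 to 20 in CD48+ HPCs. Over all genes the ranges were 5945 to 6321 at day 6, 3997 to 5049 at day 10, 2838 to 4198 for day 10 against day 6, 7942 to 8292 in culture and 2139 to 3496 in CD48+ HPCs. Intron counts were 0 to 4 at day 6, 0 to 2 at day 10, 0 to 2 for day 10 against day 6, 13 to 17 in culture and 0 to 1 in CD48+ HPCs. Exon-minus-intron counts were 11 to 18 at day 6, 9 to 19 at day 10, 0 for day 10 against day 6, 6 to 13 in culture and 0 in CD48+ HPCs. Contrasts across experiments had 0 to 2 for culture minus day 6, 2 to 3 for untreated against uncultured HSCs and 5 to 13 for the day 10 groups. Mitochondrial counts were 3 to 4 at day 6, 0 to 2 at day 10, 4 to 5 for day 10 against day 6, 5 in culture and 2 to 6 in CD48+ HPCs.

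Of 1399 recomputations of 100 named log2 changes, 28 turned sign, none of them called. With 1 library left out, the changes that did so ran, for day 10 against day 6, from -0.12 to 0.039 for Ndufs8, from -0.098 to 0.031 for Ndufb11, from -0.048 to 0.074 for Ndufa7 and from -0.32 to 0.030 for Ndufb3. In culture Ndufa6 ran from -0.014 to 0.15. In CD48+ HPCs Ndufa6 ran from -0.11 to 0.098, Ndufb11 from -0.057 to 0.12 and Ndufs4 from -0.31 to 0.065. ND3 ran from -0.041 to 0.030 at day 6 and ND5 from -0.070 to 0.071 at day 10. With the block, Ndufb11 was at 0.0067 for day 10 against day 6 and ND1 at -0.0073 at day 10. Without a filter, ND3 was at 0.036 at day 6 and ND5 at 0.0041 at day 10. Without those 5 libraries, ND3 was at 0.068 and ND6 at 0.020 at day 6, and ND5 at 0.070 at day 10.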
